A study of Caenorhabditis elegans with 8 samples.

Results

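The respiratory poison antimycin A was given to wild type Caenorhabditis elegans of the Bristol strain, and whole-body RNA was sequenced at L4, the last larval stage, at 22 °C. Described here are the worms labelled F1 and F2, each exposed to 1.92 µM antimycin A, 2 libraries per generation and 4 in all (called the treated libraries from here on), set against 2 libraries of untreated wild type worms. These 6 libraries are among the 16 of the series, which also holds wild type worms labelled P0 on the same dose and the 4 groups of damt-1 worms. The libraries were picked by their labels and not by a measured value. Of 14396 transcripts listed in any deposited count table, the 13487 listed in both the F1 and the F2 table were kept, and 12207 of them passed the filter on low counts and were tested.

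Whether the earlier generation of F1 and F2 was itself exposed is not in the labels, and the start of exposure is given once as the egg and once as L1. The untreated wild type group carries no generation label, so a difference between generations and an effect of the drug cannot be told apart. Each group is 1 deposited sample whose label gives 2 replications, taken here as the 2 count columns of the group, with nothing to say that they came from separate cultures, so each p-value reflects the spread of these libraries alone, and that spread may be technical. RNA came from whole worms, so fewer cells of a type and less RNA per cell cannot be told apart. The deposited counts are per RefSeq transcript and neither strand nor duplicate removal is stated, so overlapping and antisense genes cannot be separated, and reads of near-identical family members may have been split between copies.

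Complex III passes electrons from ubiquinol to cytochrome c, and antimycin A blocks it at the inner quinone site. In C. elegans, respiratory inhibition is known to induce mitochondrial chaperones, detoxification enzymes and innate defence genes, to shift fat and heme metabolism and to slow growth. The germ line expands and starts gametogenesis around L4, while the epidermis lays down a new collagen cuticle in each moulting cycle, with gene families that peak at set times of the cycle.

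The 6 libraries held 3771905 to 4365451 counts each, and their 10 most counted transcripts took 1.63% to 1.8% of a library. The 4 treated libraries stood close to each other: over transcripts, chi-square per degree of freedom was 1.27 to 1.36 between F2 and F1 libraries, 1.44 within F1, 1.18 within F2, 1.48 within untreated, and 17.13 to 19.19 between treated and untreated libraries. A value of 1 is what sampling alone would give. Genes marking neurons, body wall muscle, pharynx, intestine, hypodermis and somatic gonad were counted in every group, as whole-body RNA requires, and no tested marker was at 0 in either group. The gene damt-1, linked to adenine methylation of DNA and intact by label in these worms, had 27.5 and 35.5 CPM in the F1 libraries and 28.9 and 31.6 CPM in the F2 libraries, against 20.4 and 20.1 CPM in the untreated libraries. All 4 treated values were higher (log2 0.61 ± 0.14, adjusted p = 0.0013).

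Levels are given as CPM, the share of a library's counts scaled to a fixed total, which depend on transcript length and so compare libraries and not genes. Differences are fitted log2 differences of the mean of F1 and F2 minus untreated, with the standard error after ±, and each adjusted p is from edgeR's quasi-likelihood test with Benjamini-Hochberg adjustment over all transcripts tested, with a threshold of 0.05. By this test 3480 transcripts (28.5%) rose and 3279 (26.9%) fell. At least 2-fold changes past the threshold numbered 1074 rises (8.8%) and 590 falls (4.83%). All 4 treated libraries lay above both untreated ones for 4059 transcripts (33.3%) and below both for 3971 (32.5%). When the scaling factors were taken only from transcripts with few counts per nucleotide, 2848 rose and 4268 fell, so 40.0% of calls were rises in place of 51.5%, and the median log2 difference of all transcripts was -0.098 in place of -0.002. Gene groups are lists of names, each described by its counts beside these shares, with no test of the list.

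**Figure D1:**
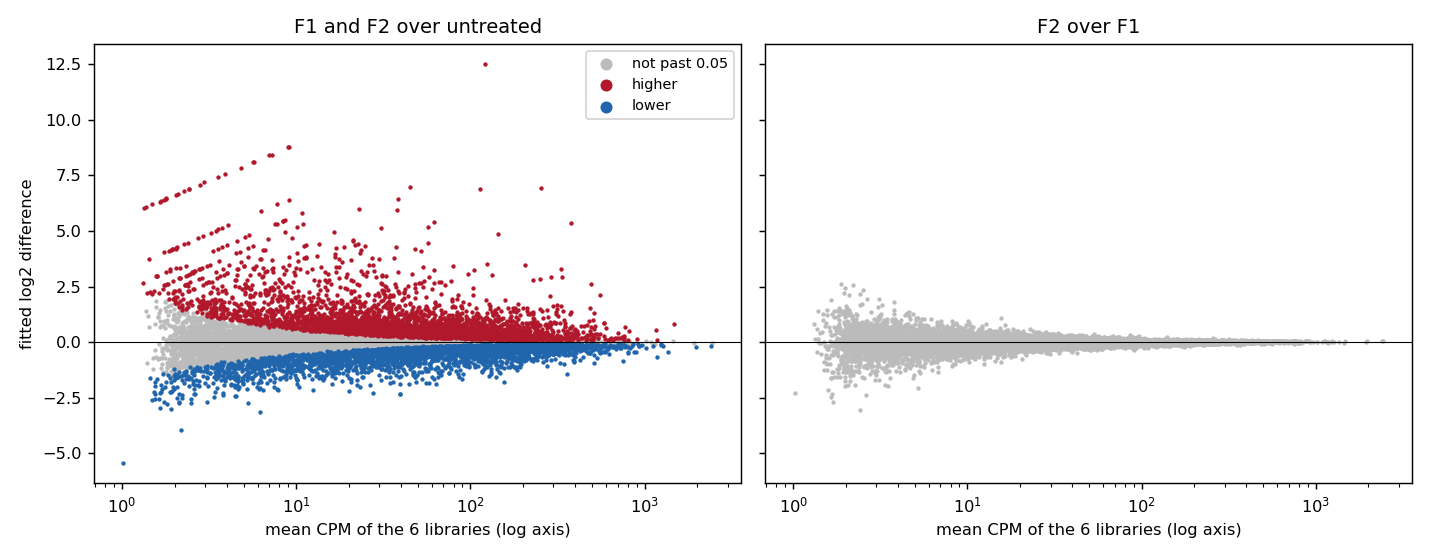
Fitted log2 difference (vertical axis) against the mean CPM of the 6 libraries (horizontal log axis) for 12207 transcripts, F1 and F2 over untreated on the left and F2 over F1 on the right. Red and blue points passed the threshold upward (3480) and downward (3279) on the left, and 0 points did so on the right.

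Among genes whose higher group averaged 10 CPM or more, without overlap between groups, the largest rises were of genes hardly counted in untreated worms. F22B3.7 led them, with 169.8 and 178.8 CPM in the F1 libraries and 188.9 and 187.2 CPM in the F2 libraries, against 0 and 0 CPM in the untreated libraries. With 0 counts in the untreated group, against a floor of 3 counts over that group, it was at least 474.8-fold higher, and P0 worms had 123.4 and 116.1 CPM. The other genes of this set with 0 untreated counts were ZK177.9 (at least 35.9-fold higher), C04C3.14 (at least 35.3-fold), the chitinase-like gene chil-18 (at least 28.6-fold) and the transthyretin-related gene ttr-21 (at least 27.5-fold). The rule of no overlap required counts of each of these genes in all 4 treated libraries.

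Among rises with some untreated counts, the cytochrome P450 gene cyp-14A4 had 383.2 and 371.8 CPM in the F1 libraries and 381.8 and 378.5 CPM in the F2 libraries, against 1.88 and 4.11 CPM in the untreated libraries. It rose 122.9-fold (log2 6.94 ± 0.11, adjusted p = 1.2e-18), and the groups were far apart. The glutathione S-transferase gene gst-14, of the family that conjugates glutathione to electrophiles, had 64.9 and 66.4 CPM in the F1 libraries and 69.7 and 69.6 CPM in the F2 libraries, against 0.268 and 0.725 CPM in the untreated libraries (log2 6.97 ± 0.23, adjusted p = 3.5e-14). The C-type lectin gene clec-17 had 160.9 and 169.8 CPM in the F1 libraries and 175.8 and 176.3 CPM in the F2 libraries, against 1.61 and 1.21 CPM in the untreated libraries (log2 6.90 ± 0.14, adjusted p = 2.4e-17). For gst-14 and clec-17, no treated library came near an untreated one.

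Heme-responsive hrg-2 had 57.8 and 59.3 CPM in the F1 libraries and 59.1 and 53.2 CPM in the F2 libraries, against 0.537 and 0.725 CPM in the untreated libraries (log2 6.43 ± 0.24, adjusted p = 1.5e-13), and the P450 gene cyp-13A5 had 40.4 and 37.0 CPM in the F1 libraries and 29.9 and 29.3 CPM in the F2 libraries, against 0.537 and 0.483 CPM in the untreated libraries (log2 5.97 ± 0.30, adjusted p = 7.6e-12). A pair of further rises rested on 1 untreated count each: the summed, depth-scaled count ratio was 105.8 (95% counting interval 18.8 to 4197) for the cuticle collagen col-143 and 91.0 (95% counting interval 16.1 to 3614) for the glutathione peroxidase gene gpx-3. These intervals cover counting error only.

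The largest falls chosen in the same way were smaller on the log scale. B0334.13 had 1.74 and 2.04 CPM in the F1 libraries and 1.24 and 1.74 CPM in the F2 libraries, against 15.6 and 14.7 CPM in the untreated libraries (log2 -3.15 ± 0.30, adjusted p = 6.3e-08). The collagen gene col-137 had 15.1 and 18.4 CPM in the F1 libraries and 17.1 and 16.4 CPM in the F2 libraries, against 80.8 and 88.2 CPM in the untreated libraries, a 5.04-fold fall (log2 -2.33 ± 0.10, adjusted p = 1.4e-12). E03H4.4 had 16.4 and 15.9 CPM in the F1 libraries and 19.8 and 14.9 CPM in the F2 libraries, against 92.6 and 75.7 CPM in the untreated libraries (log2 -2.32 ± 0.12, adjusted p = 1.1e-11). The choice required the treated libraries to lie below the untreated ones in each. The lipase-family gene lips-6 fell 4.82-fold (log2 -2.27 ± 0.13, adjusted p = 3.8e-11) and the lectin gene clec-242 fell 4.58-fold (log2 -2.20 ± 0.15, adjusted p = 5.6e-10). The others of these 12 falls, with larger standard errors, were F47B8.10 (log2 -2.73 ± 0.41) and the collagens col-96 (-2.15 ± 0.26) and col-187 (-2.09 ± 0.32). They also included the cuticlin gene cut-3 (-2.15 ± 0.41), C43F9.11 (-2.15 ± 0.21), K01A6.7 (-2.11 ± 0.44) and C01G12.7 (-2.10 ± 0.26). Libraries of a group were apart for some, as for K01A6.7 at 14.5 and 6.77 CPM untreated.

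**Figure D2:**
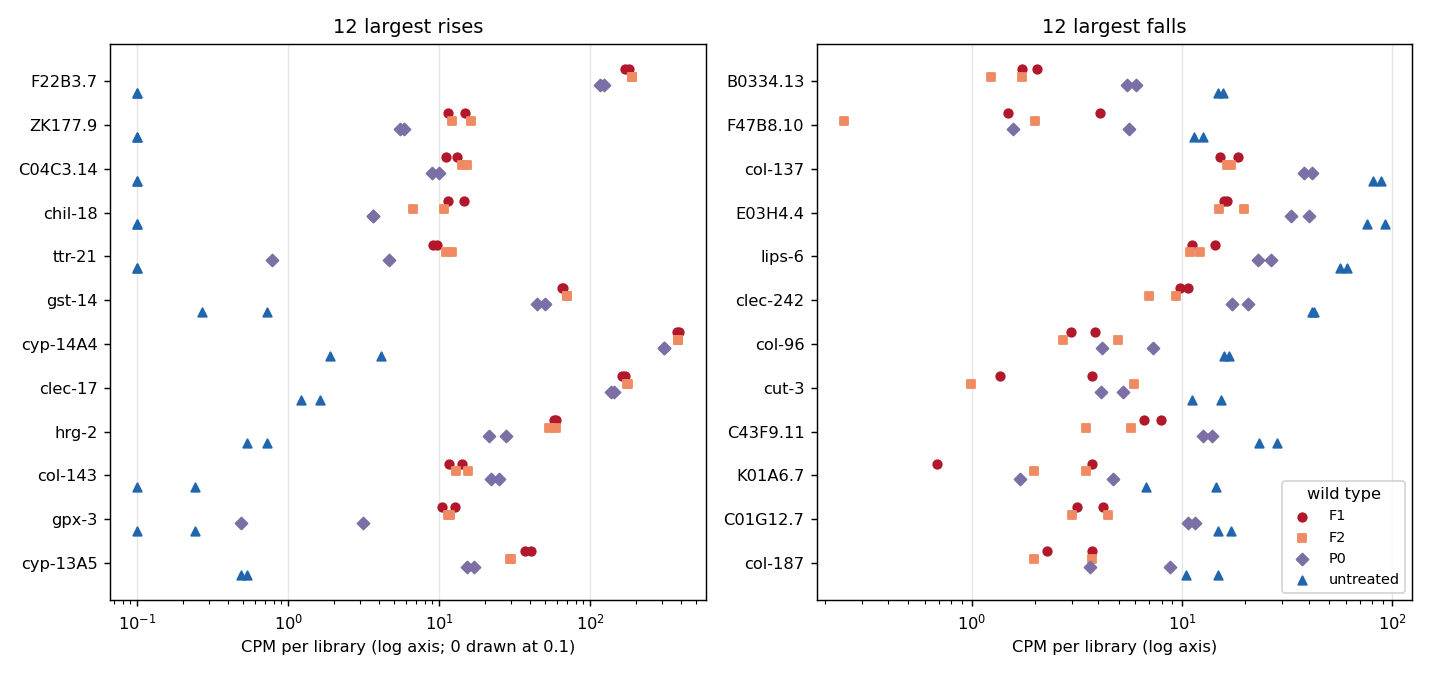
CPM per library (horizontal log axis) of the 12 largest rises (left) and 12 largest falls (right), with F1, F2, P0 and untreated libraries as separate symbols and 0 drawn at 0.1. The choice of genes puts all F1 and F2 points right of the untreated ones on the left panel. On the right panel it puts them to the left. Most P0 points lie between the F1 and F2 points and the untreated ones.

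By absolute level, the rises that added most counts were in other genes. The heme-responsive gene hrg-11.2 had 1734 and 1652 CPM in the F1 libraries and 1721 and 1739 CPM in the F2 libraries, against 987.9 and 971.0 CPM in the untreated libraries (log2 0.81 ± 0.03, adjusted p = 2.9e-13). Yolk protein gene vit-5 had 724.3 and 749.7 CPM in the F1 libraries and 739.1 and 761.9 CPM in the F2 libraries, against 184.4 and 163.2 CPM in the untreated libraries (log2 2.10 ± 0.05, adjusted p = 7.3e-17). The cadherin genes cdh-10 and cdh-7, of a family of cell adhesion proteins, rose 6.18-fold and 9.93-fold. For cdh-10 the values were 668.0 and 692.0 CPM in the F1 libraries and 688.7 and 684.8 CPM in the F2 libraries, against 105.5 and 115.3 CPM in the untreated libraries, and for cdh-7 they were 463.3 and 475.4 CPM in the F1 libraries and 484.9 and 481.7 CPM in the F2 libraries, against 43.5 and 52.0 CPM in the untreated libraries. Neither gene's groups overlapped.

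The 6 largest losses in CPM included genes of several kinds. The epidermal attachment gene mup-4 had 1023 and 960.8 CPM in the F1 libraries and 970.8 and 985.0 CPM in the F2 libraries, against 1605 and 1531 CPM in the untreated libraries (log2 -0.67 ± 0.03, adjusted p = 4.7e-12). adt-1, an ADAMTS-family metalloprotease gene, had 237.2 and 225.0 CPM in the F1 libraries and 224.5 and 221.3 CPM in the F2 libraries, against 609.5 and 620.7 CPM in the untreated libraries (log2 -1.44 ± 0.03, adjusted p = 2.7e-16). T06D8.10 had 619.9 and 591.7 CPM in the F1 libraries and 582.8 and 576.2 CPM in the F2 libraries, against 1077 and 1066 CPM in the untreated libraries (log2 -0.86 ± 0.03, adjusted p = 7.5e-14). Every treated library was below every untreated library for these. The pyrimidine synthesis gene pyr-1 fell (log2 -0.44 ± 0.03), as did Y16B4A.2 by less (log2 -0.21 ± 0.03). The ankyrin gene unc-44 is listed as 2 transcripts with opposite directions, so its fall (log2 -0.95 ± 0.03) is uncertain.

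Detoxification works through P450 enzymes that oxidise foreign compounds, transferases that conjugate them and ABC transporters that export them. Of 60 P450 genes tested, 40 rose and 13 fell (median log2 0.57), against 28.5% and 26.9% of all transcripts. Behind cyp-14A4 came cyp-33C8 with 472.2 and 463.6 CPM in the F1 libraries and 485.6 and 480.2 CPM in the F2 libraries, against 60.6 and 63.6 CPM in the untreated libraries (log2 2.93 ± 0.05, adjusted p = 3.4e-18). cyp-14A1 had 200.3 and 217.9 CPM in the F1 libraries and 213.2 and 220.8 CPM in the F2 libraries, against 6.71 and 7.98 CPM in the untreated libraries (log2 4.85 ± 0.10, adjusted p = 5e-17). cyp-13A12 had 196.1 and 186.6 CPM in the F1 libraries and 177.8 and 180.3 CPM in the F2 libraries, against 65.8 and 61.4 CPM in the untreated libraries (log2 1.54 ± 0.06, adjusted p = 1.3e-13). The treated and untreated libraries did not overlap in any of the 3. The summed level of the P450 list was 5078 to 5184 CPM in treated libraries and 3561 to 3604 CPM in untreated ones.

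Conjugating enzymes were called in both directions. Among 54 UDP-glucuronosyltransferases, which add sugars to small molecules, 21 rose (38.9%) and 18 fell (33.3%). ugt-61 had 318.3 and 324.7 CPM in the F1 libraries and 310.8 and 334.9 CPM in the F2 libraries, against 45.4 and 46.9 CPM in the untreated libraries (log2 2.80 ± 0.06, adjusted p = 7.3e-17), ugt-19 rose 4.26-fold, ugt-13 9.52-fold and ugt-2 2.91-fold. Among 37 glutathione S-transferases 12 rose (32.4%) and 13 fell (35.1%), near the shares of all transcripts, the falls being 8 by DESeq2. gst-19 rose (log2 3.03 ± 0.24), though its untreated libraries were apart, at 1.88 and 8.46 CPM. gst-12 rose (log2 1.91 ± 0.18), while gst-35 fell (log2 -1.01 ± 0.09). The oxidative stress marker gst-4 had 167.3 and 165.0 CPM in the F1 libraries and 170.4 and 169.6 CPM in the F2 libraries, against 142.2 and 132.7 CPM in the untreated libraries, a small rise (log2 0.29 ± 0.05, adjusted p = 3.5e-05). Of 41 ABC transporters 17 rose (41.5%) and 11 fell (26.8%, near the 26.9% of all transcripts). Up were pgp-10 (log2 2.70 ± 0.12, adjusted p = 1.7e-12), pgp-9 (log2 0.70 ± 0.03, adjusted p = 1.8e-12) and haf-3 (log2 0.98 ± 0.04, adjusted p = 6.7e-13), and pgp-13 was down (log2 -0.87 ± 0.05, adjusted p = 3.1e-11).

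Nuclear hormone receptors, ligand-regulated transcription factors greatly expanded in worms, had 33 rises (24.6%) and 31 falls (23.1%) among 134, near the 28.5% and 26.9% of all transcripts, the falls being 19 by DESeq2 and 19 without untreated replicate 2. nhr-155 had 74.1 and 75.5 CPM in the F1 libraries and 73.4 and 81.8 CPM in the F2 libraries, against 3.76 and 5.08 CPM in the untreated libraries (log2 4.09 ± 0.15, adjusted p = 1.2e-13). nhr-90 (log2 1.02 ± 0.06) and nhr-193 (log2 1.26 ± 0.09) also rose, and nhr-234 fell (log2 -1.83 ± 0.12).

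**Figure D3:**
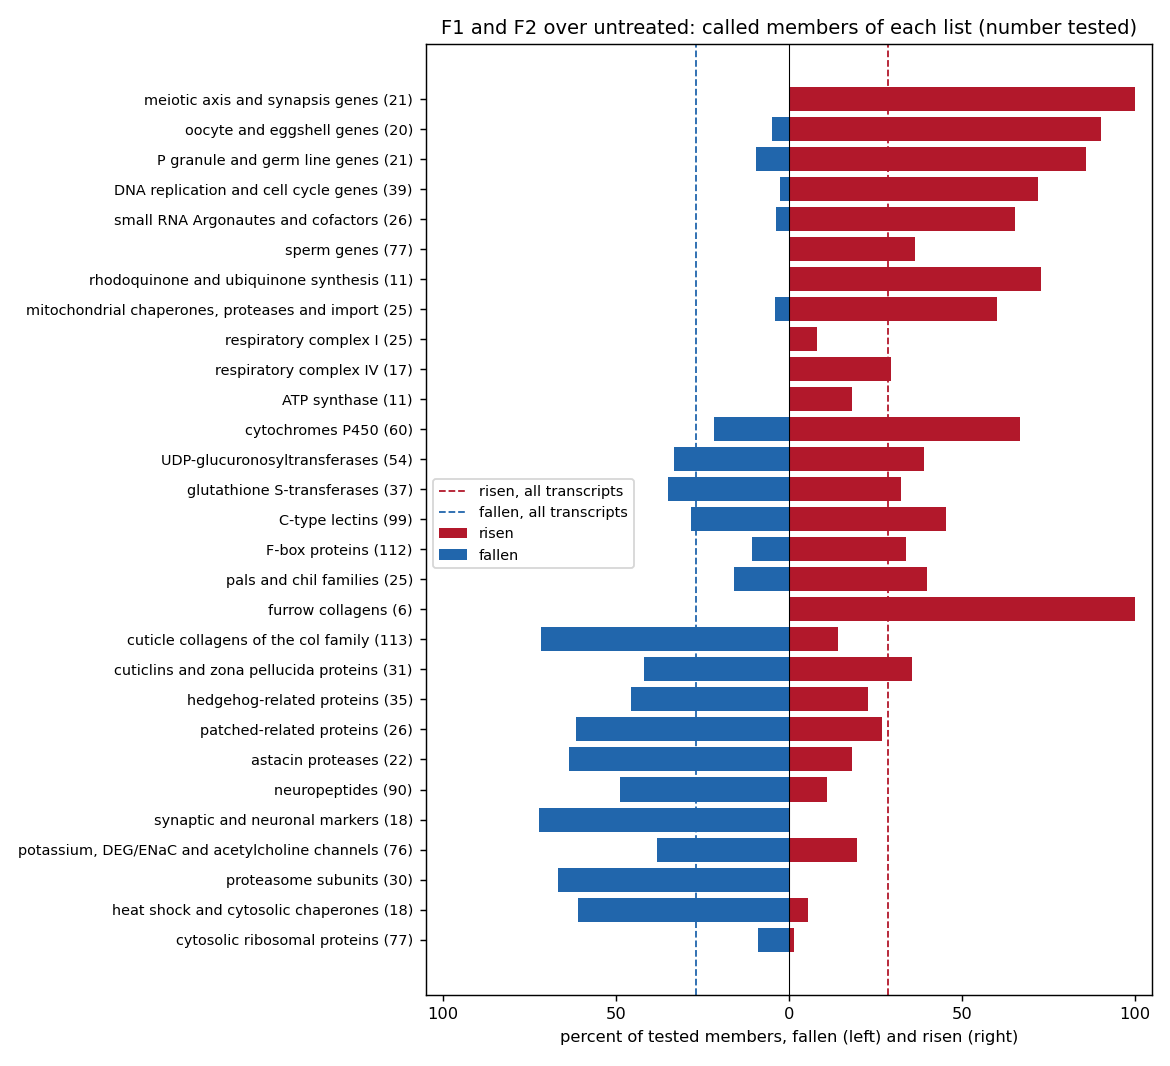
Percent of tested members of each gene list past the threshold, fallen to the left and risen to the right, with the number tested in parentheses and dashed lines at the shares of all transcripts (26.9% fallen, 28.5% risen). The meiotic, oocyte and P granule lists reach far to the right and the col family, astacin and neuronal lists far to the left.

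Mitochondrial fatty acid oxidation was led by acs-2, an acyl-CoA synthetase that activates fatty acids for the mitochondrion. It had 555.7 and 539.5 CPM in the F1 libraries and 565.3 and 579.1 CPM in the F2 libraries, against 12.6 and 14.7 CPM in the untreated libraries, 40.7-fold higher in treated worms (log2 5.35 ± 0.07, adjusted p = 1.3e-19), the smallest adjusted p of the marker genes. Of the 54 genes of the list 19 rose (35.2%) and 19 fell (35.2%). hacd-1, a hydroxyacyl-CoA dehydrogenase gene, rose (log2 1.27 ± 0.06), while the carnitine palmitoyltransferase-family gene cpt-4 had 274.2 and 261.8 CPM in the F1 libraries and 254.2 and 256.9 CPM in the F2 libraries, against 519.0 and 504.7 CPM in the untreated libraries (log2 -0.97 ± 0.03, adjusted p = 9.6e-14) and ech-1.1 fell (log2 -0.82 ± 0.04). For cpt-4 every treated library was below both untreated ones.

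In fat synthesis, the fatty acid synthase gene fasn-1 had 1303 and 1306 CPM in the F1 libraries and 1312 and 1316 CPM in the F2 libraries, against 904.4 and 877.9 CPM in the untreated libraries (log2 0.56 ± 0.03, adjusted p = 2.3e-11), and of the 21 genes of its list 5 rose (3 by DESeq2, 8 when scaled by library totals) and 6 fell, shares of 23.8% and 28.6% that are near those of all transcripts, among the falls the desaturase gene fat-7 (log2 -0.44 ± 0.04), elo-9 (log2 -0.60 ± 0.06) and dgat-2 (log2 -0.47 ± 0.05). Of 15 lipases 4 rose (26.7%, near the share of all transcripts) and 6 fell (40.0%), and lipl-2 (log2 -0.91 ± 0.05), lips-3 (log2 -0.78 ± 0.04) and lips-9 (log2 -0.85 ± 0.05) were among the falls. The summed lipase level was 924 to 934 CPM in treated and 1234 to 1267 CPM in untreated libraries.

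Of 25 complex I genes 2 rose and 0 fell: nuaf-1 (log2 0.43 ± 0.06) and nduf-2.2 (log2 0.36 ± 0.05). In complex II, 1 of 5 rose, the flavoprotein gene sdha-2 (log2 0.68 ± 0.04), or 2 of 5 without untreated replicate 1, without F1 replicate 2, with all 16 libraries, with library totals, with the replicate block and with a filter of 10 CPM. In complex III, the target of the drug, 1 of 7 genes rose and 1 fell (2 with low-count-density scaling). The Rieske iron-sulfur protein gene isp-1 had 273.4 and 257.2 CPM in the F1 libraries and 271.0 and 266.6 CPM in the F2 libraries, against 353.5 and 333.3 CPM in the untreated libraries (log2 -0.36 ± 0.04, adjusted p = 3.7e-07). The core protein gene ucr-2.3 had 182.4 and 182.0 CPM in the F1 libraries and 176.6 and 168.6 CPM in the F2 libraries, against 119.7 and 123.3 CPM in the untreated libraries (log2 0.54 ± 0.05, adjusted p = 1.5e-08). These 2 went opposite ways, with no overlap between groups in either.

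Complex IV had 5 rises (29.4%, near the 28.5% of all transcripts) and 0 falls among 17 genes, and the rises were 3 without untreated replicate 1. All 5 are genes of assembly or cofactor insertion: cox-15 (log2 0.70 ± 0.04) and cox-10 (log2 0.27 ± 0.06; adjusted p = 0.067 without untreated replicate 1), which act in heme A synthesis, the copper chaperone gene sco-1 (log2 0.40 ± 0.04), cox-18 (log2 0.32 ± 0.06) and the SURF1 homologue sft-1 (log2 0.55 ± 0.22), the last named after its values were seen. Among 11 ATP synthase genes 2 rose, mai-1 (log2 0.38 ± 0.10) and asb-1 (log2 0.11 ± 0.04), the rises being 1 by DESeq2, with low-count-density scaling and without F2 replicate 1, F2 replicate 2 or untreated replicate 2. With scaling from low-count-density transcripts the falls were 5 in complex I, 7 in complex IV and 8 in ATP synthase, in place of 0 in each, and without untreated replicate 2 they were 1, 3 and 3.

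Ubiquinone, the electron carrier upstream of complex III, is made by the coq enzymes. Of 11 genes of ubiquinone and rhodoquinone synthesis 8 rose and 0 fell (median log2 0.33). coq-1, which builds the isoprenoid tail, had 268.5 and 261.8 CPM in the F1 libraries and 275.7 and 272.5 CPM in the F2 libraries, against 150.8 and 150.8 CPM in the untreated libraries (log2 0.84 ± 0.04, adjusted p = 8.5e-12). coq-8 had 500.0 and 485.2 CPM in the F1 libraries and 499.0 and 515.5 CPM in the F2 libraries, against 310.8 and 294.7 CPM in the untreated libraries (log2 0.72 ± 0.04, adjusted p = 1.3e-11). The hydroxylase gene clk-1 (log2 0.49 ± 0.07) and the methyltransferase gene coq-5 (log2 0.37 ± 0.05) rose less. All treated libraries exceeded the untreated ones for coq-1 and coq-8.

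The mitochondrial unfolded protein response raises chaperones and proteases of the organelle. Of 25 such genes and import factors 15 rose and 1 fell. With low-count-density scaling 10 rose and 2 fell, and by DESeq2 12 rose and 1 fell. The inner membrane proteases spg-7 (log2 0.51 ± 0.03), ymel-1 (log2 0.55 ± 0.04) and ppgn-1 (log2 0.63 ± 0.05) rose. The 1 fall was lonp-2, a peroxisomal Lon protease gene (log2 -0.55 ± 0.04). The chaperone gene hsp-6, the usual reporter of the response, had 784.0 and 742.6 CPM in the F1 libraries and 776.2 and 779.1 CPM in the F2 libraries, against 695.4 and 654.3 CPM in the untreated libraries (log2 0.19 ± 0.03, adjusted p = 0.00013). hsp-60 had 98.2 and 94.99 CPM in the F1 libraries and 102.1 and 102.0 CPM in the F2 libraries, against 88.6 and 84.6 CPM in the untreated libraries (log2 0.20 ± 0.06, adjusted p = 0.0073). Both differences were small, and hsp-6 missed the threshold with low-count-density scaling (log2 0.09, adjusted p = 0.15), as hsp-60 did with DESeq2 (adjusted p = 0.11), with low-count-density scaling (adjusted p = 0.19) and without untreated replicate 2 (adjusted p = 0.11).

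Among antioxidant genes, the mitochondrial superoxide dismutase gene sod-3 had 63.7 and 65.2 CPM in the F1 libraries and 67.8 and 65.4 CPM in the F2 libraries, against 8.59 and 7.01 CPM in the untreated libraries (log2 3.07 ± 0.13, adjusted p = 8.9e-13), an 8.41-fold rise, and gpx-3 rose beside it. Thioredoxin reductase gene trxr-2 rose (log2 0.66 ± 0.08) and thioredoxin gene trx-3 fell (log2 -0.85 ± 0.06). In all, 7 of 22 redox genes rose (31.8%) and 7 fell (31.8%), near the 28.5% and 26.9% of all transcripts, the falls being 4 without untreated replicate 1. Among 15 targets of the forkhead factor DAF-16, 7 rose and 3 fell. The metallothionein gene mtl-1, a metal-binding protein of the intestine, had 47.8 and 44.3 CPM in the F1 libraries and 45.2 and 44.3 CPM in the F2 libraries, against 0.268 and 2.17 CPM in the untreated libraries (log2 5.12 ± 0.27, adjusted p = 1.8e-11). The small heat shock protein gene sip-1 rose (log2 1.41 ± 0.07) and dod-17 fell (log2 -0.38 ± 0.04).

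Metal and heme genes had 18 rises (46.2%) and 11 falls (28.2%, near the 26.9% of all transcripts) among 39. After hrg-2 and hrg-11.2 came hrg-11.4 (log2 1.41 ± 0.05) and the cadmium-responsive gene cdr-4, with 356.9 and 333.6 CPM in the F1 libraries and 356.8 and 353.3 CPM in the F2 libraries, against 130.2 and 127.4 CPM in the untreated libraries (log2 1.44 ± 0.05, adjusted p = 2.2e-14). Chosen after their values were seen, the iron store ferritin gene ftn-1 had 84.8 and 80.4 CPM in the F1 libraries and 79.6 and 83.3 CPM in the F2 libraries, against 15.03 and 16.4 CPM in the untreated libraries (log2 2.38 ± 0.10, adjusted p = 1e-12), and the copper transporter gene cua-1 (log2 1.14 ± 0.14) and the heme transport genes hrg-9 (log2 1.498 ± 0.11) and hrg-3 (log2 1.36 ± 0.38) also rose. No treated library overlapped with an untreated one for cdr-4 or ftn-1.

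Glycolysis and gluconeogenesis genes had 7 rises and 0 falls among 16, or 11 rises in the fit with all 16 libraries, which gave 1 fall, as did low-count-density scaling and the fits without F2 replicate 2 or untreated replicate 1. aldo-1, an aldolase gene, rose (log2 0.36 ± 0.04), as did gpd-4 (log2 0.81 ± 0.09) and pfk-1.2 (log2 0.89 ± 0.12). In the citric acid cycle 6 of 24 rose (25.0%, near the 28.5% of all transcripts) and 2 fell (8.3%). The rises were 3 by DESeq2 and with low-count-density scaling, 2 without untreated replicate 2 and 10 with all 16 libraries, and the falls 4 with low-count-density scaling. The isocitrate dehydrogenase gene idhg-2 (log2 0.39 ± 0.04) and the phosphoenolpyruvate carboxykinase gene pck-3 (log2 0.72 ± 0.10) rose, and suca-1 (log2 -0.20 ± 0.04) and sucl-2 (log2 -0.15 ± 0.04) fell slightly. Of 12 genes of the hypoxia and hydrogen sulfide response, 6 rose and 3 fell. rhy-1, a regulator upstream of the hypoxia factor, fell (log2 -0.89 ± 0.05), while the cysteine synthase-like genes cysl-1 (log2 0.31 ± 0.04) and cysl-3 (log2 0.40 ± 0.05) rose.

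Several families linked to pathogen defence had more rises than falls. Of 99 C-type lectins, secreted carbohydrate-binding proteins, 45 rose (45.5%) and 28 fell (28.3%, near the 26.9% of all transcripts), with a median log2 of 0.28. clec-4 had 298.0 and 289.1 CPM in the F1 libraries and 299.2 and 297.2 CPM in the F2 libraries, against 22.0 and 30.7 CPM in the untreated libraries (log2 3.48 ± 0.08, adjusted p = 7.3e-17). clec-265 (log2 1.27 ± 0.05) and clec-10 (log2 0.89 ± 0.04) followed. Treated and untreated libraries of clec-4 were far apart. Of 25 pals and chil genes, families induced by microsporidia and oomycetes, 10 rose and 4 fell, the falls being 2 by DESeq2 and 2 without untreated replicate 2. pals-6 had 54.8 and 60.5 CPM in the F1 libraries and 55.6 and 53.7 CPM in the F2 libraries, against 0.805 and 0.967 CPM in the untreated libraries (log2 5.93 ± 0.23, adjusted p = 2e-13), and pals-14 (log2 4.34 ± 0.38), pals-34 (log2 2.89 ± 0.24) and chil-22 (log2 2.17 ± 0.16) rose as well.

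F-box proteins, adaptors of ubiquitin ligases with many rapidly evolving members in worms, had 38 rises (33.9%) and 12 falls (10.7%) among 112. The rises were 22 by DESeq2 and 21 without untreated replicate 1, and the falls were 7 without untreated replicate 2. fbxa-182 had 30.0 and 33.6 CPM in the F1 libraries and 29.9 and 27.6 CPM in the F2 libraries, against 9.66 and 7.25 CPM in the untreated libraries (log2 1.84 ± 0.17, adjusted p = 5.6e-08). fbxa-189 rose (log2 2.09 ± 0.23) from untreated values of 4.03 and 10.15 CPM. fbxa-166 rose (log2 1.76 ± 0.22) from 4.56 and 9.2 CPM, and fbxa-59 fell (log2 -0.55 ± 0.06). Lysozymes, saposin-like proteins and defence peptides had 21 rises (34.4%) and 19 falls (31.1%) among 61. The saposin-like gene spp-24 had 27.3 and 24.8 CPM in the F1 libraries and 27.4 and 26.4 CPM in the F2 libraries, against 2.15 and 2.17 CPM in the untreated libraries (log2 3.59 ± 0.24, adjusted p = 4e-10), while the antimicrobial peptide gene nlp-30 (log2 -0.90 ± 0.09) and the lysozyme gene lys-4 (log2 -0.47 ± 0.05) fell. The peptide genes abf-5 (log2 4.17 ± 0.50) and abf-6 (log2 3.84 ± 0.59), named after their values were seen, rose.

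All 21 meiotic axis and synapsis genes rose (median log2 0.69, range 0.23 to 1.51), while 18 rose by DESeq2. Their summed level was 1277 to 1337 CPM in treated and 818 to 823 CPM in untreated libraries. syp-1, of the synaptonemal complex that joins paired chromosomes, had 102.4 and 103.2 CPM in the F1 libraries and 103.4 and 108.4 CPM in the F2 libraries, against 49.6 and 54.1 CPM in the untreated libraries (log2 1.00 ± 0.07, adjusted p = 5.8e-10). Its partner syp-4 had 115.8 and 129.1 CPM in the F1 libraries and 127.8 and 132.0 CPM in the F2 libraries, against 61.2 and 60.9 CPM in the untreated libraries (log2 1.05 ± 0.07, adjusted p = 2e-10). him-14, a crossover gene of the MutS family, rose (log2 1.11 ± 0.11), as did the pairing kinase gene plk-2 (log2 0.66 ± 0.05).

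Of 20 oocyte and eggshell genes 18 rose and 1 fell (median log2 1.22), and their sum was 1826 to 1933 CPM in treated and 835 to 914 CPM in untreated libraries. The eggshell chondroitin proteoglycan gene cpg-2 had 217.4 and 213.8 CPM in the F1 libraries and 220.1 and 228.0 CPM in the F2 libraries, against 87.0 and 81.7 CPM in the untreated libraries (log2 1.38 ± 0.05, adjusted p = 1.2e-13). cpg-1 had 111.5 and 108.4 CPM in the F1 libraries and 118.2 and 115.4 CPM in the F2 libraries, against 32.2 and 40.9 CPM in the untreated libraries (log2 1.62 ± 0.08, adjusted p = 8.8e-12), and cbd-1, a chitin-binding eggshell protein, rose (log2 1.14 ± 0.06). These groups did not overlap in any library. The gene egg-6 sits in the list by name but encodes a matrix protein of epithelia, and it rose too (log2 1.39 ± 0.05, adjusted p = 1.5e-13). The chitin synthase gene chs-1 (log2 1.64 ± 0.09) and the yolk receptor gene rme-2 (log2 2.10 ± 0.43), named after their values were seen, were among the larger rises.

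Genes of germ granules and germ cell fate had 18 rises and 2 falls among 21 transcripts (median log2 0.84), both falls being transcripts of gld-2, which is listed 3 times with opposite directions. glp-1, the Notch receptor that keeps germ line stem cells dividing, had 174.0 and 168.2 CPM in the F1 libraries and 161.7 and 173.6 CPM in the F2 libraries, against 88.3 and 88.0 CPM in the untreated libraries (log2 0.94 ± 0.05, adjusted p = 4.7e-11). glh-2, a Vasa-like helicase of P granules, had 106.6 and 111.8 CPM in the F1 libraries and 99.9 and 105.2 CPM in the F2 libraries, against 42.4 and 39.4 CPM in the untreated libraries (log2 1.37 ± 0.07, adjusted p = 2.1e-11), and gld-1, an RNA-binding protein of meiotic entry, rose less (log2 0.63 ± 0.04). Of 39 replication and cell cycle genes 28 rose and 1 fell (22 and 4 with low-count-density scaling). The helicase subunit gene mcm-2 had 182.7 and 174.5 CPM in the F1 libraries and 173.3 and 177.3 CPM in the F2 libraries, against 77.0 and 79.3 CPM in the untreated libraries (log2 1.18 ± 0.05, adjusted p = 1.8e-12). The kinetochore kinase gene bub-1 rose (log2 0.76 ± 0.05). Treated and untreated libraries did not overlap for glp-1, glh-2 or mcm-2.

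Small RNA pathway genes, many of them active in the germ line, had 17 rises and 1 fall among 26 (2 falls with low-count-density scaling). The Piwi gene prg-1 had 407.0 and 408.1 CPM in the F1 libraries and 421.9 and 410.3 CPM in the F2 libraries, against 212.6 and 234.7 CPM in the untreated libraries (log2 0.88 ± 0.04, adjusted p = 5e-12), and the RNA-dependent RNA polymerase gene ego-1 (log2 1.05 ± 0.05) and the Argonaute genes ppw-2 (log2 0.88 ± 0.04) and wago-4 (log2 0.95 ± 0.06) rose. Of 77 sperm genes 28 rose (36.4%, against 28.5% of all transcripts), 0 fell and 49 did not pass the threshold (median log2 0.24). spe-18 had 155.7 and 150.7 CPM in the F1 libraries and 148.6 and 153.9 CPM in the F2 libraries, against 99.03 and 104.4 CPM in the untreated libraries (log2 0.58 ± 0.05, adjusted p = 2.3e-08), spe-11 rose (log2 0.69 ± 0.09) and so did spe-15 (log2 0.65 ± 0.08). Their summed level was 3202 to 3232 CPM in treated and 2613 to 2689 CPM in untreated libraries.

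Yolk protein genes did not move together, with 2 of 5 up and 2 down. vit-5 rose as above and vit-1 rose (log2 0.71 ± 0.03), while vit-3 (log2 -0.78 ± 0.04) and vit-4 (log2 -0.53 ± 0.04) fell. vit-2, whose product is a main yolk protein of adults, had 6.2 and 6.14 CPM in the F1 libraries and 5.69 and 6.46 CPM in the F2 libraries, against 4.83 and 4.59 CPM in the untreated libraries. It did not pass the threshold (log2 0.38 ± 0.31, adjusted p = 0.32), although all 4 treated values were the higher ones. Yolk genes have near-identical copies, so the split between them is uncertain. Of 15 genes of adenine and histone methylation 3 rose and 3 fell, the falls being 1 by DESeq2, 1 without untreated replicate 2 and 5 with low-count-density scaling. Among them met-2, which acts on H3K9, rose (log2 0.79 ± 0.06) and the H3K4 gene set-16 fell slightly (log2 -0.19 ± 0.03).

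Most collagens of the col family fell. Of 113 genes of the col family 16 rose and 81 fell (median log2 -0.38), with summed levels of 18031 to 19207 CPM in treated and 21626 to 23134 CPM in untreated libraries. The adult collagen gene col-19 had 105.1 and 94.3 CPM in the F1 libraries and 98.2 and 87.0 CPM in the F2 libraries, against 252.8 and 240.3 CPM in the untreated libraries (log2 -1.36 ± 0.05, adjusted p = 2.3e-13). A few members rose strongly: col-176 had 360.7 and 339.1 CPM in the F1 libraries and 355.8 and 360.1 CPM in the F2 libraries, against 52.3 and 47.4 CPM in the untreated libraries (log2 2.83 ± 0.06, adjusted p = 5e-17), and col-142 had 181.7 and 190.4 CPM in the F1 libraries and 187.4 and 192.5 CPM in the F2 libraries, against 21.5 and 24.2 CPM in the untreated libraries (log2 3.04 ± 0.07, adjusted p = 3.4e-16). col-103 and col-98 both rose (log2 1.61 ± 0.04 and 1.61 ± 0.05). For col-19, col-176 and col-142 the groups did not overlap.

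The 6 furrow collagens, which form the circumferential furrows of the cuticle and signal its damage, all rose (range 1.36 to 2.01, median log2 1.49). dpy-7 had 232.8 and 230.9 CPM in the F1 libraries and 228.7 and 234.0 CPM in the F2 libraries, against 79.7 and 82.2 CPM in the untreated libraries (log2 1.51 ± 0.05, adjusted p = 2.2e-14). dpy-8 had 317.5 and 312.5 CPM in the F1 libraries and 326.6 and 326.7 CPM in the F2 libraries, against 112.2 and 118.9 CPM in the untreated libraries (log2 1.47 ± 0.04, adjusted p = 1.1e-14). dpy-2 (log2 1.36 ± 0.05) and dpy-3 (log2 1.42 ± 0.06) rose too, and the sum of the list was 1009 to 1041 CPM in treated and 370 to 375 CPM in untreated libraries. Of the 13 other body shape collagens 9 fell slightly (lowest log2 -0.24) and 2 rose (1 with low-count-density scaling, with a filter of 10 CPM and without untreated replicate 1), the falls being 4 without untreated replicate 1 and 5 with all 16 libraries. rol-6 (log2 -0.24 ± 0.04), sqt-1 (log2 -0.18 ± 0.04) and bli-6 (log2 -0.20 ± 0.04) were among the falls, and bli-1 rose (log2 0.21 ± 0.03; adjusted p = 0.086 with low-count-density scaling). The other rise, dpy-17, named after its values were seen, had 5.45 and 5.91 CPM in the F1 libraries and 4.2 and 7.46 CPM in the F2 libraries, against 0.268 and 2.42 CPM in the untreated libraries (log2 2.03 ± 0.54, adjusted p = 0.0037).

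**Figure D4:**
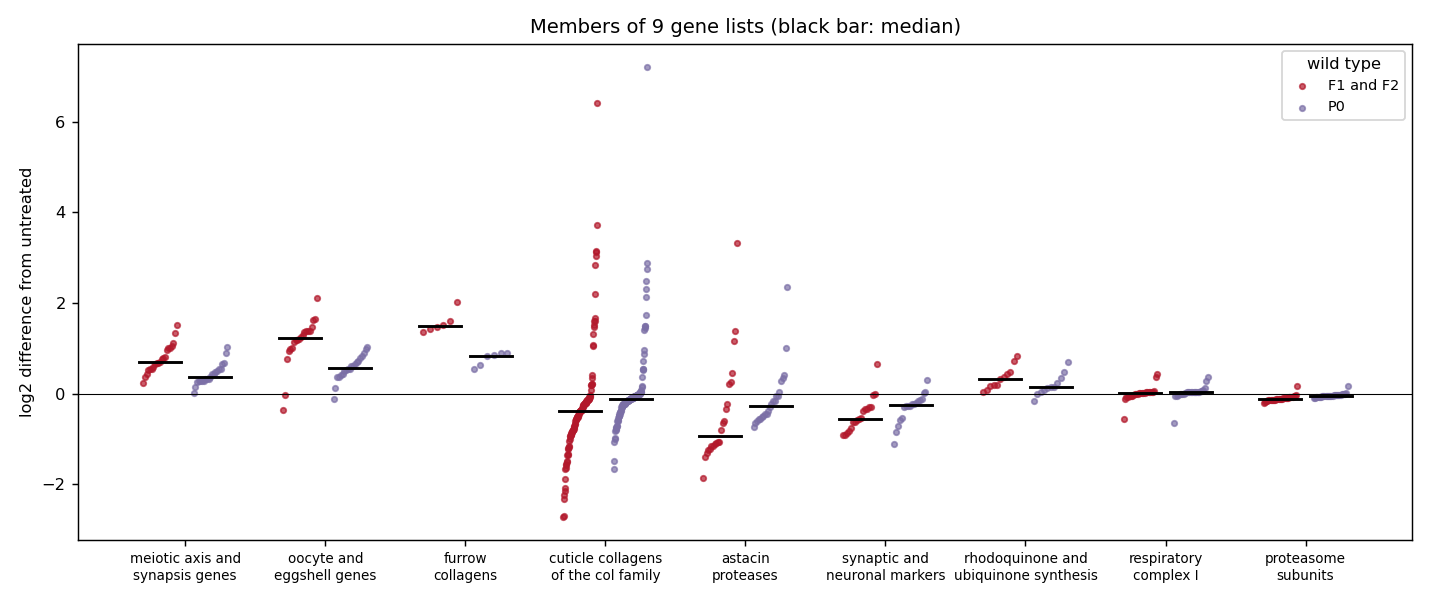
Log2 difference from untreated (vertical axis) of each tested member of 9 gene lists, F1 and F2 in red and P0 in purple, with black bars at the medians. The medians of F1 and F2 lie at 1.49 for furrow collagens and 1.22 for oocyte genes, and at -0.93 for astacins and -0.55 for neuronal markers. Both sets of values use the same untreated libraries.

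Astacin metalloproteases, several of which act in moulting, had 14 falls and 4 rises among 22 (median log2 -0.93), with sums of 633 to 733 CPM in treated and 1273 to 1282 CPM in untreated libraries. nas-7 had 89.7 and 76.6 CPM in the F1 libraries and 85.8 and 79.8 CPM in the F2 libraries, against 189.2 and 196.8 CPM in the untreated libraries (log2 -1.22 ± 0.06, adjusted p = 3e-12). nas-38, a regulator of moulting and quiescence, fell (log2 -1.08 ± 0.06), as did nas-23 (log2 -1.40 ± 0.07). Of 24 moulting regulators and enzymes 13 transcripts fell and 2 rose (1 by DESeq2), among the falls nas-36 (log2 -1.12 ± 0.08), the peroxidase gene mlt-7 (log2 -0.63 ± 0.05) and the kinase gene nekl-2 (log2 -0.59 ± 0.07).

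Cuticlins and zona pellucida proteins had 11 rises (35.5%) and 13 falls (41.9%) among 31. noah-2, of the apical matrix that precedes the cuticle, had 605.1 and 600.4 CPM in the F1 libraries and 607.1 and 622.4 CPM in the F2 libraries, against 323.4 and 295.6 CPM in the untreated libraries (log2 0.98 ± 0.04, adjusted p = 3.8e-13), whereas cut-4 had 137.8 and 132.0 CPM in the F1 libraries and 125.6 and 127.3 CPM in the F2 libraries, against 286.9 and 278.2 CPM in the untreated libraries (log2 -1.11 ± 0.04, adjusted p = 1.1e-13) and ram-5 fell (log2 -1.86 ± 0.08). Named after their values were seen, further genes of this precuticle matrix rose: let-653 (log2 3.06 ± 0.26), fbn-1 (log2 2.43 ± 0.25) and the lipocalin genes lpr-3 (log2 1.35 ± 0.04), lpr-4 (log2 1.34 ± 0.05) and lpr-5 (log2 1.35 ± 0.04). noah-2 and cut-4 moved in opposite directions with no overlap between groups.

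Hedgehog-related proteins are secreted by the epidermis and oscillate with moulting. Of 35, 8 rose (22.9%) and 16 fell (45.7%), with a median log2 of -0.39. grd-6 had 94.4 and 80.0 CPM in the F1 libraries and 86.0 and 85.5 CPM in the F2 libraries, against 292.0 and 298.3 CPM in the untreated libraries (log2 -1.77 ± 0.05, adjusted p = 3.2e-15) and wrt-8 fell (log2 -1.27 ± 0.04). grd-3 had 145.3 and 134.3 CPM in the F1 libraries and 145.4 and 139.7 CPM in the F2 libraries, against 23.9 and 28.3 CPM in the untreated libraries (log2 2.43 ± 0.08, adjusted p = 4.5e-14) and wrt-10 rose (log2 1.54 ± 0.05). Their counterparts, the patched-related membrane proteins, had 7 rises (26.9%, near the 28.5% of all transcripts) and 16 falls (61.5%) among 26. The median was log2 -0.46, and the rises were 4 by DESeq2, 4 with low-count-density scaling and 4 without untreated replicate 2. ptr-23 fell (log2 -0.93 ± 0.03), while ptr-8 (log2 2.57 ± 0.10), ptr-10 (log2 2.12 ± 0.09) and ptr-13 (log2 1.71 ± 0.07) rose.

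Most neuronal markers tested fell. Of 18 synaptic and neuronal markers 0 rose and 13 fell (median log2 -0.55), with sums of 1486 to 1512 CPM in treated and 2067 to 2094 CPM in untreated libraries. The touch neuron tubulin gene mec-7 had 231.3 and 229.7 CPM in the F1 libraries and 234.2 and 238.7 CPM in the F2 libraries, against 363.7 and 357.7 CPM in the untreated libraries (log2 -0.63 ± 0.04, adjusted p = 4.5e-11), and its partner mec-12 had 297.7 and 292.0 CPM in the F1 libraries and 308.1 and 305.1 CPM in the F2 libraries, against 460.8 and 432.9 CPM in the untreated libraries (log2 -0.57 ± 0.04, adjusted p = 2.2e-10). ida-1, of dense core vesicles, had 339.8 and 328.8 CPM in the F1 libraries and 336.3 and 331.2 CPM in the F2 libraries, against 500.0 and 496.5 CPM in the untreated libraries (log2 -0.58 ± 0.03, adjusted p = 5.4e-11). For each, the treated libraries were all below the untreated ones. egl-21, which trims neuropeptide precursors, fell less (log2 -0.29 ± 0.04).

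Of 90 neuropeptide genes 10 rose and 44 fell (median log2 -0.32), the rises being 4 by DESeq2. nlp-10 (log2 -0.63 ± 0.06), flp-7 (log2 -0.80 ± 0.08) and nlp-43 (log2 -0.70 ± 0.09) fell. Of 76 potassium, sodium and acetylcholine channel genes 15 rose and 29 fell (median log2 -0.29), with lgc-21 at 148.2 and 131.6 CPM in the F1 libraries and 131.8 and 145.5 CPM in the F2 libraries, against 304.9 and 300.7 CPM in the untreated libraries (log2 -1.12 ± 0.05, adjusted p = 6.7e-13). del-6 went up (log2 2.18 ± 0.16). Insulin-like peptides had 6 rises and 4 falls among 21, the rises being 3 and the falls 2 without untreated replicate 1. ins-33 (log2 1.67 ± 0.20) and ins-35 (log2 1.67 ± 0.24) rose and ins-18 fell (log2 -0.94 ± 0.17).

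Markers of other tissues were called in both directions. Of 16 body wall muscle markers 1 rose (6.2%) and 5 fell (31.2%, near the 26.9% of all transcripts), the falls being 3 by DESeq2 and 8 with low-count-density scaling. Their sum was 6388 to 6687 CPM in treated and 6765 to 7138 CPM in untreated libraries. The myosin gene myo-3 fell slightly (log2 -0.12 ± 0.03) and the troponin gene tni-3 rose (log2 0.29 ± 0.05). Of 16 pharyngeal markers 7 rose (43.8%) and 4 fell (25.0%, near the 26.9% of all transcripts), the falls being 2 by DESeq2 and with all 16 libraries. Their median was log2 0.19 and the lowest stood at -0.9, while the members named here are rises. The pharyngeal myosin gene myo-1 had 275.4 and 280.9 CPM in the F1 libraries and 274.7 and 276.3 CPM in the F2 libraries, against 129.1 and 135.1 CPM in the untreated libraries (log2 1.07 ± 0.04, adjusted p = 5.6e-13), myo-2 rose (log2 0.68 ± 0.06) and phat-3 had 59.2 and 49.5 CPM in the F1 libraries and 48.2 and 50.2 CPM in the F2 libraries, against 9.12 and 9.19 CPM in the untreated libraries (log2 2.49 ± 0.15, adjusted p = 7.6e-11). The sum of that list was 1729 to 1793 CPM in treated and 1491 to 1534 CPM in untreated libraries.

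Intestinal markers had 6 rises (30.0%, near the 28.5% of all transcripts) and 9 falls (45.0%) among 20, the falls being 4 by DESeq2, 4 without untreated replicate 1 and 5 with all 16 libraries. The protease genes cpr-4 (log2 0.87 ± 0.05) and cpr-5 (log2 0.65 ± 0.04) rose, and the intermediate filament genes ifp-1 (log2 -0.65 ± 0.03) and ifd-2 (log2 -0.80 ± 0.04) fell. Gap junction innexins had 11 rises (64.7%) and 5 falls (29.4%, near the share of all transcripts) among 17. The median was log2 0.53, and the falls were 2 by DESeq2, 2 without F2 replicate 1 and 3 without F1 replicate 2 or either untreated library. inx-3 had 16.6 and 16.6 CPM in the F1 libraries and 16.3 and 17.2 CPM in the F2 libraries, against 1.07 and 0.483 CPM in the untreated libraries (log2 4.39 ± 0.36, adjusted p = 6.9e-09), and inx-9, of the somatic gonad sheath, had 109.8 and 109.1 CPM in the F1 libraries and 116.7 and 105.9 CPM in the F2 libraries, against 29.0 and 28.8 CPM in the untreated libraries (log2 1.93 ± 0.08, adjusted p = 7.4e-13). In the basement membrane 4 of 19 transcripts rose (21.1%) and 9 fell (47.4%), against 28.5% and 26.9% of all transcripts. The median was log2 -0.13 and no member lay below -0.37, and the members named here are rises. lam-3, a laminin alpha chain, averaged 179.2 ± 9.34 CPM in treated worms and 15.6 ± 0.824 CPM in untreated worms (SD, n = 4 and 2; log2 3.52 ± 0.09, adjusted p = 6.3e-16), and papilin gene mig-6 (log2 1.01 ± 0.08) and peroxidasin gene pxn-2 (log2 1.39 ± 0.11) rose. The part of shifts in tissue make-up in these results was not tested.

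Genes of the protein machinery changed by small amounts that depend on scaling. Of 30 proteasome subunits 0 rose and 20 fell, the falls being 8 by DESeq2, 8 without untreated replicate 1, 10 with all 16 libraries, 12 without F2 replicate 2 and 28 with low-count-density scaling. rpn-12 had 192.4 and 178.6 CPM in the F1 libraries and 191.9 and 193.0 CPM in the F2 libraries, against 224.4 and 211.7 CPM in the untreated libraries (log2 -0.21 ± 0.04, adjusted p = 0.00067) and pas-4 fell as little (log2 -0.19 ± 0.04). Of 77 cytosolic ribosomal protein genes 1 rose and 7 fell, but 1 fell by DESeq2, with library totals, with no count filter and with all 16 libraries, 19 with the replicate block, 64 with low-count-density scaling, 26 without F1 replicate 1, 50 without untreated replicate 2 and 1 without any other library. Of 32 translation factors 3 rose and 15 fell, the falls being 8 by DESeq2, 9 without untreated replicate 1, 9 with all 16 libraries and 25 with low-count-density scaling.

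Heat shock and cytosolic chaperones had 1 rise and 11 falls among 18, the falls being 5 by DESeq2, 4 with all 16 libraries, 3 without untreated replicate 1 and 6 without F1 replicate 2 or F2 replicate 2. hsp-70 had 78.3 and 85.2 CPM in the F1 libraries and 94.95 and 83.8 CPM in the F2 libraries, against 139.3 and 147.4 CPM in the untreated libraries (log2 -0.75 ± 0.06, adjusted p = 5.5e-09). hsf-1, the heat shock factor, rose slightly (log2 0.20 ± 0.05, adjusted p = 0.0036; adjusted p = 0.072 by DESeq2 and 0.16 with low-count-density scaling). Endoplasmic reticulum stress genes had 2 rises and 11 falls among 22, the falls being 7 without untreated replicate 1. The BiP gene hsp-4, a reporter of that response, had 244.9 and 241.6 CPM in the F1 libraries and 240.1 and 244.4 CPM in the F2 libraries, against 289.3 and 277.0 CPM in the untreated libraries (log2 -0.22 ± 0.04, adjusted p = 7.8e-05). pek-1, a stress kinase, rose (log2 0.34 ± 0.04). Of 26 aminoacyl-tRNA synthetases 11 rose and 3 fell (6 with low-count-density scaling), with the mitochondrial nars-2 (log2 1.12 ± 0.07) and dars-2 (log2 0.64 ± 0.05) ahead.

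Calls also varied with how densely a transcript was counted. Counts per nucleotide of transcript had a median of 0.126, a 99th percentile of 1.4 and a maximum of 3.29. The share that fell was 18.4% of transcripts between 0.01 and 0.03 counts per nucleotide and 45.3% of those between 0.5 and 1, and the share that rose was 38.1% between 0.1 and 0.2 and 8.0% above 1. Precision grows with counts, so the shares are not of equal sensitivity. The part of this in the calls of highly counted groups such as ribosomal proteins was not tested beyond the low-count-density scaling above.

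F2 and F1 were compared with each other. No transcript of 12207 passed the threshold (0.0%) by edgeR, with 512 at an unadjusted p under 0.05, and 0 passed by DESeq2, with 112 at an unadjusted p under 0.05. Without F2 replicate 2 there was 1 call. The marker genes illustrate it: acs-2 had 555.7 and 539.5 CPM in F1 and 565.3 and 579.1 CPM in F2, and sod-3 had 63.7 and 65.2 CPM in F1 and 67.8 and 65.4 CPM in F2. dpy-7 had 232.8 and 230.9 CPM in F1 and 228.7 and 234.0 CPM in F2, and mec-7 had 231.3 and 229.7 CPM in F1 and 234.2 and 238.7 CPM in F2. A miss of the threshold does not show that the generations were alike, and 2 libraries each limit what could be seen.

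Against P0 worms on the same dose, F1 and F2 differed in many transcripts. Of 12278 tested in the 8 wild type libraries 1827 (14.9%) were higher in F1 and F2 and 1878 (15.3%) were lower, with 307 and 104 at least 2-fold apart. DESeq2 gave 914 higher and 832 lower, the fit without P0 replicate 1 gave 1189 and 1193, and low-count-density scaling gave 1374 and 2465, so 35.8% of calls were higher in place of 49.3%. On the first principal component of the 8 libraries, which held 64% of the variance, F1 and F2 lay at -28.6 to -31.8, P0 at 5.9 and 7, and untreated at 52.8 and 56.6.

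The genes furthest above P0 were at a low level in P0 worms. F08D12.3 had 41.6 and 42.0 CPM in F1 and 39.1 and 35.6 CPM in F2, against 2.88 and 4.13 CPM in P0 (log2 3.47 ± 0.20, adjusted p = 1.6e-10). M163.8 had 9.42 and 16.4 CPM in F1 and 10.6 and 14.7 CPM in F2, against 0.784 and 1.46 CPM in P0 (log2 3.46 ± 0.42, adjusted p = 2.6e-06). W01C9.2 had 12.9 and 21.8 CPM in F1 and 15.3 and 20.6 CPM in F2, against 0.523 and 2.67 CPM in P0 (log2 3.41 ± 0.42, adjusted p = 2.9e-06). The choice required each to be higher in all 4 libraries than in both of P0. The glucuronosyltransferase gene ugt-57 (log2 3.21 over P0) and gpx-3 (log2 2.68 over P0) completed this set. Among genes below P0 were C01G12.7 (log2 -1.58 against P0), C15C8.5 (-1.51), dct-5 (-1.45), the peptide gene nlp-25 (-1.41) and the Ras GTPase activator gene gap-2 (-1.41).

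Counts of calls against P0 varied by gene group, beside the 14.9% above and 15.3% below among all transcripts. Of the 20 oocyte and eggshell genes 17 were above P0 and 1 below, of the 77 sperm genes 22 above and 0 below, and of the 21 meiotic genes 11 above and 0 below. All 6 furrow collagens were above P0, while 75 of 113 col genes were below and 9 above. Of 90 neuropeptides 26 were below and 9 above, and of 18 neuronal markers 5 were below and 0 above. Against untreated, P0 worms moved mostly the same way. In P0, 15 of 20 oocyte and 10 of 21 meiotic genes rose and 0 fell, and 5 of 6 furrow collagens rose. Of col genes 42 fell and 14 rose, of neuropeptides 14 fell and 0 rose, and of neuronal markers 8 fell and 0 rose. Of sperm genes 7 rose and 1 fell. Beside these, 14.5% of autosomal transcripts rose and 8.23% fell in P0, and 8.15% and 16.5% on X. dpy-7 had 232.8 and 230.9 CPM in F1 and 228.7 and 234.0 CPM in F2, against 151.4 and 138.4 CPM in P0 (log2 0.67 ± 0.04, adjusted p = 4.5e-10). col-19 had 105.1 and 94.3 CPM in F1 and 98.2 and 87.0 CPM in F2, against 172.6 and 164.7 CPM in P0 (log2 -0.82 ± 0.06, adjusted p = 1.2e-09). sod-3 had 63.7 and 65.2 CPM in F1 and 67.8 and 65.4 CPM in F2, against 30.1 and 26.7 CPM in P0 (log2 1.20 ± 0.10, adjusted p = 1e-08).

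Some strong changes against untreated worms were near P0 levels. acs-2 had 555.7 and 539.5 CPM in F1 and 565.3 and 579.1 CPM in F2, against 552.8 and 535.3 CPM in P0, and did not pass the threshold (log2 0.04 ± 0.03, adjusted p = 0.41). mtl-1 did not either (log2 0.21 ± 0.13, adjusted p = 0.22), nor did hacd-1 (log2 0.04 ± 0.05, adjusted p = 0.52) or cdr-4 (log2 0.07 ± 0.04, adjusted p = 0.19). The comparisons against untreated and against P0 share the F1 and F2 libraries, so their values are set side by side and no overlap is tested.

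The shares of calls differed between the X chromosome and the autosomes. Of 1717 X-linked transcripts tested 18.1% rose and 44% fell (median log2 -0.24), while of 10435 autosomal ones 30.3% rose and 24.1% fell (median log2 0.03). Single autosomes ranged from 29.8% to 31.3% risen and from 21.8% to 27.6% fallen. Within bins of counts per nucleotide the fallen share was 25.9% on X and 15.4% on autosomes below 0.03, 43.7% and 18% from 0.03 to 0.2, 61.5% and 30.1% from 0.2 to 0.5, and 57.4% and 42.2% above 0.5. With low-count-density scaling the X median was -0.33 and the autosomal one -0.06, and more autosomal transcripts fell (32.3%) than rose (24.7%). By DESeq2 12.6% rose and 31.5% fell on X, and 21.2% rose and 15.9% fell on autosomes. P0 against untreated, which uses the same untreated libraries, differed in the same direction. There 8.15% rose and 16.5% fell on X (median log2 -0.1), and 14.5% rose and 8.23% fell on autosomes (median log2 0.01). Against P0, 11% of X-linked transcripts were higher and 25% lower, compared with 15.6% and 13.7% of autosomal ones. By DESeq2 these shares were 6.16% and 10.4% on X and 7.05% and 5.61% on autosomes, and without P0 replicate 1 there were 132 higher and 290 lower among 1785 on X and 1057 higher and 902 lower among 10776 on autosomes. Without P0 replicate 2 the shares were 8.21% and 15.6% on X and 10.9% and 8.91% on autosomes. With low-count-density scaling more autosomal transcripts were lower (18.3%) than higher (11.5%) than in P0, beside 31% lower and 9.65% higher on X. X-linked genes are known to be poorly expressed in the germ line, whose genes rose here, and the part of that in the difference was not tested. These shares are a description, with no test, since genes of a chromosome are not independent.

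**Figure D5:**
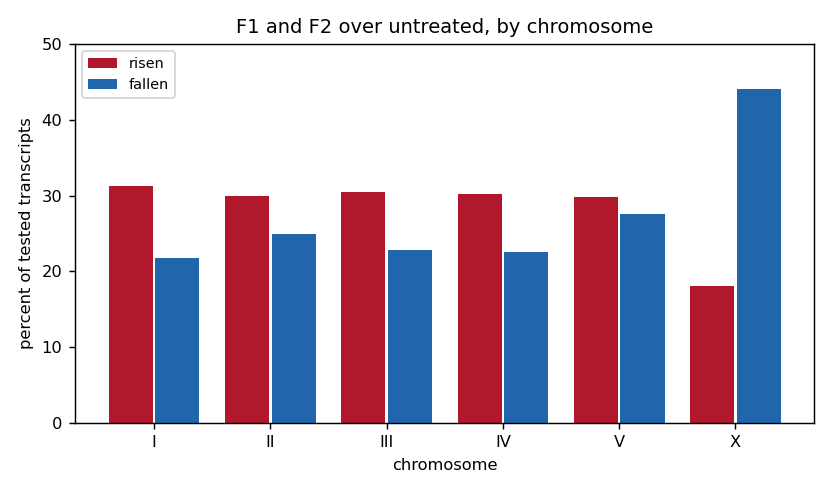
Percent of tested transcripts of each chromosome that rose (red) and fell (blue) in F1 and F2 against untreated. The bars of chromosomes I to V lie close together, and X has 18.1% risen and 44% fallen.

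Neighbours in the annotation were compared for genes that changed by at least 2-fold. Of 1069 transcripts that rose at least 2-fold and have a place in the annotation, 17.1% had the next tested gene also risen at least 2-fold, against 8.9% of all, and of 583 that fell at least 2-fold 9.4% had the next one also fallen, against 4.8%. The longest run, of 8 genes, was gtnt-34, nstp-7, K06H6.2, K06H6.1, gtnt-57, gtnt-56, nhr-90 and F48G7.13. Runs of 4 included the P450 genes cyp-13A3, cyp-13A5, cyp-13A6 and cyp-13A8, and C09F12.2 with lpr-3, lpr-5 and lpr-4. Runs of 3 included gst-15, gst-14 and gst-12, as well as cyp-31A2, gfat-2 and F22B3.7. Tandem family members and operons both place related genes side by side in worms, and without strand in the counts reads across a gene boundary cannot be assigned. These are counts with no test.

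The authors' deposited table for F1 lists 6782 transcripts with fold changes above 0, of which 2158 have an adjusted p under 0.05, and 2139 of those also rose here. The authors' deposited table for F2 lists 6771, with 2186 past the threshold, 2159 of which also rose here. Of the 19 for F1 and 27 for F2 that did not rise here, 17 and 26 were not tested. Both analyses use the same libraries, so the match is not independent support.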

How the data were processed

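The deposited values used are raw counts per RefSeq transcript, whole numbers in the authors' count tables, each table with 2 libraries of a treated group and the 2 untreated ones. The build ce10 is given per the submitters' processing notes, and so are the tools DESeq2 1.20.0, HTSeq 0.9.1, HISAT2 2.0.5, Trimmomatic 0.35, R 3.5.0 and SAMtools 1.3.1, with no role given. The lowest sum of a listed transcript over the 4 libraries of a table was 11 counts. Per the file headers, the deposited log2 values are DESeq2's fold changes, treated over untreated, and the deposited p-value column is adjusted. They served only for the number of calls, and the 24 per-sample columns of those tables were not used. The untreated columns of the F1 and F2 tables were the same (0 differences).

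Count columns carry short letter codes, matched to the groups by genotype letter, treatment letter and the generation of the table. Counts were joined on the transcript identifier and analysed with edgeR 4.0.16 under R 4.3.3, after filterByExpr (groups given, minimum count 10), with TMM factors, a robust quasi-likelihood fit with 1 mean per group over the 6 libraries (8 with P0), and Benjamini-Hochberg adjustment over all transcripts tested, with a threshold of 0.05. The common dispersion was 0.00035, a coefficient of variation of 1.87%, with 3 residual degrees of freedom per transcript and a median of 14.7 prior ones. F1 and F2 kept their own means. The standard error is the absolute log2 difference divided by the root of the F statistic. Folds against a group at 0 take 3 counts, summed over that group, as a floor, and ratios with few counts carry an exact 95% counting interval. Names and lengths came from a reference of another build than the authors' own, so no coordinates are given, and 11836 transcripts matched it by accession. No sequences are shown, since only the gene tables and annotation were used here.

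Genes named are the markers acs-2, col-19, damt-1, gst-4, hsp-4, hsp-6, hsp-60, sod-3 and vit-2 (hsp-16.2 was not tested), the 12 largest rises and 12 largest falls against untreated and the 5 largest each way against P0, with a higher mean of 10 CPM or more and no overlap between groups, the 6 largest rises and falls in CPM, and up to 4 members per list with the smallest adjusted p. Others are said to be chosen after their values were seen, and 1 result of this rule is not reported here. The members, the 68 lists and this rule were chosen with earlier results of these data known.

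Alternatives were RLE factors, library totals, TMM from transcripts under 0.2 counts per nucleotide (low-count-density scaling), DESeq2 1.42.0, other count filters, all 16 libraries, the 8 wild type libraries, F1 and F2 as 1 group, a replicate block, leaving out each library and a log2 limit of 1. The fitting code was tested on simulated counts. Figures used matplotlib 3.10.9.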

Additional observations from a re-analysis of the deposited data

Results flagged for a closer look

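Of 52 genes looked at for a library apart from the other treated ones, 1 had one: dct-5 stood at 1.98 CPM in F1 replicate 1, and its gap to the nearest of the other F1 and F2 libraries exceeded 0.829 of the range of the 4. About 1 gene in 20 would be set apart by chance.

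The same 52 genes, which are the markers and those chosen by the size of a change, were looked at for a difference from P0. For 41 of them, F1 and F2 differed from P0 by the direct test, in which the untreated libraries shared by both comparisons drop out. Of these, 10 were chosen for being furthest above or below P0 (F08D12.3, M163.8, W01C9.2, ugt-57, gpx-3, C01G12.7, C15C8.5, dct-5, nlp-25 and gap-2), so their difference restates the choice. Of all 292 named genes, those named from lists included, 238 passed that test, and the names below are not a full list of them. Among all transcripts 3705 of 12278 passed it. Most named genes were chosen by their difference from untreated with the same F1 and F2 libraries, so the choice itself favours a difference from P0. The values here are log2 differences of F1 and F2 over P0. Higher in F1 and F2 were F08D12.3 (3.47), M163.8 (3.46), W01C9.2 (3.41), ugt-57 (3.21), gpx-3 (2.68), ttr-21 (1.91), chil-18 (1.53), cdh-10 (1.31), ZK177.9 (1.26), hrg-2 (1.21), sod-3 (1.20), cdh-7 (1.17), cyp-13A5 (1.06), F22B3.7 (0.59), gst-14 (0.52), fasn-1 (0.32), cyp-14A4 (0.31), clec-17 (0.28), vit-5 (0.28) and hrg-11.2 (0.21).

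Lower in F1 and F2 than in P0 were B0334.13 (-1.77), C01G12.7 (-1.58), C15C8.5 (-1.51), dct-5 (-1.45), nlp-25 (-1.41), gap-2 (-1.41), col-137 (-1.25), C43F9.11 (-1.20), E03H4.4 (-1.12), col-187 (-1.10), clec-242 (-1.06), lips-6 (-1.03), adt-1 (-0.83), col-19 (-0.82), col-143 (-0.80), T06D8.10 (-0.61), mup-4 (-0.51), unc-44 (-0.48), pyr-1 (-0.41), hsp-4 (-0.16) and Y16B4A.2 (-0.16). Of these, col-143 was higher than untreated in F1 and F2 and higher again in P0.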

How the results depend on the processing

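The count of transcripts changed against untreated, 6759, was 5124 by DESeq2 and 5567 to 6603 with each library left out in turn, lowest without untreated replicate 1, and 1664 with a log2 limit of 1. For F2 against F1 the count was 0 in every setting run except without F2 replicate 2, where it was 1, so its range with a library left out was 0 to 1. Against P0 the count was 3705, but 1746 by DESeq2, 411 with a log2 limit of 1, and 2382 (without P0 replicate 1) to 3504 with a library left out. Low-count-density scaling gave 2848 rises and 4268 falls against untreated and 1374 and 2465 against P0. Library numbers did not pair libraries across groups (correlations of deviations 0.03, 0.016 and -0.019), and the replicate block gave 6850, 0 and 3908 calls for the comparisons with untreated, of F2 with F1 and with P0. Of 292 named genes 0 reversed in any setting run. 7 missed the threshold by DESeq2, 7 with low-count-density scaling, 5 without untreated replicate 1, 6 without untreated replicate 2 and at most 4 in each other setting. Of the 68 lists, the count of falls moved by over 1.5 times in 16 by DESeq2 and in 19 with low-count-density scaling, and the median of the insulin-like peptides was -0.14 with a filter of 10 CPM, against 0.35. That filter, which tests fewer genes, left 7 rises of glutathione S-transferases, 7 of cuticlins, 6 of neuropeptides and 2 of insulin-like peptides. The causes were not tested. With 2 libraries per group, transcripts of few counts could show only large differences.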

Other observations

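Of 43 abu and pqn proteins, some of them of the pharyngeal cuticle, 10 rose (23.3%) and 20 fell (46.5%) in F1 and F2 against untreated: pqn-37 (log2 -1.36 ± 0.09) and abu-13 (log2 -0.42 ± 0.04) fell, and pqn-25 (log2 2.57 ± 0.19) and pqn-92 (log2 1.04 ± 0.09) rose. Of 47 transthyretin-related proteins 12 rose (25.5%) and 14 fell (29.8%), near the 28.5% and 26.9% of all transcripts, with ttr-26 at 41.6 and 43.6 CPM in the F1 libraries and 40.1 and 45.3 CPM in the F2 libraries, against 5.64 and 7.74 CPM in the untreated libraries, ttr-7 up (log2 2.11 ± 0.23) and ttr-14 down (log2 -0.52 ± 0.04).

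Of 22 cathepsin-like and aspartic proteases 8 rose and 5 fell, the falls being 2 by DESeq2, 10 with low-count-density scaling, 0 with all 16 libraries and without untreated replicate 1, 2 without F1 replicate 2 and 3 without either F2 library. Aspartic protease gene asp-12 had 207.2 and 203.8 CPM in the F1 libraries and 213.9 and 213.8 CPM in the F2 libraries, against 70.05 and 75.4 CPM in the untreated libraries (log2 1.52 ± 0.05, adjusted p = 4.9e-14), and the cathepsin B-like gene cpr-8 rose 4.17-fold (log2 2.06 ± 0.14, adjusted p = 4.8e-10). Of 18 transcripts of the insulin, TGF-beta and dauer pathways 5 rose (27.8%) and 5 fell (27.8%), near the shares of all transcripts, the rises being 3 by DESeq2, with low-count-density scaling and without untreated replicate 1, and the falls 3 without untreated replicate 2. The ligand gene dbl-1 (log2 -0.74 ± 0.10), the Smad gene sma-2 (log2 -0.64 ± 0.07) and daf-5 (log2 -0.57 ± 0.06) were among the falls. Of 21 autophagy genes 2 rose (9.5%), 3 fell (14.3%) and 16 did not pass the threshold, the rises being 1 by DESeq2, with low-count-density scaling and without untreated replicate 2 and 4 with all 16 libraries, and the falls 7 with low-count-density scaling. atg-2 had 292.0 and 327.5 CPM in the F1 libraries and 310.6 and 315.6 CPM in the F2 libraries, against 456.0 and 475.5 CPM in the untreated libraries (log2 -0.58 ± 0.04, adjusted p = 1e-09), bec-1 (log2 -0.28 ± 0.08) and unc-51 (log2 -0.15 ± 0.04) fell, and epg-4 rose (log2 0.49 ± 0.07).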
